A study of Mus musculus with 24 samples.

Results

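Wide domains of H3K27ac, the acetylated histone H3 lysine 27 found at active promoters and enhancers, were examined in the mouse retina at postnatal day 17 (P17). They were chosen by width alone: every P17 H3K27ac peak of 20000 bp or more was taken. This gave 1296 of 29909 P17 H3K27ac peaks (4.33%), out of 349901 peaks in 8 lists, and the width of the members is therefore a choice and not a finding. The source was CUT&RUN, in which an antibody brings a nuclease to a chromatin-bound protein and the released DNA is sequenced, on wild-type retinas at postnatal day 2 (P2) and P17, with 600000 nuclei in each reaction. At each age there were 2 libraries each for H3K27ac, for H3K4me3 (trimethylated lysine 4, the mark of promoters) and for the transcription factor SOX9, and 4 libraries from 2 antibodies for its relative SOX8. IgG libraries, 2 at each age, are not analysed here. Each target and age is represented by 1 list of peak coordinates with no value per replicate and no peak height, so the shares below carry 95% Wilson intervals that cover counting error only, and no test between ages was possible.

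Active chromatin is usually marked in short stretches. Some genes carry runs of H3K27ac far longer than a single enhancer, and such broad domains are known from many tissues at genes that define a cell type. In the mouse retina most cells are rods, which complete their outer segments and the light-detecting cascade between the ages studied here. SOX9, and later SOX8, are known in this tissue from progenitors and Müller glia, and SOX9 also from the pigment epithelium. The lists come from nuclei of the whole tissue, so a mark present in few cells and a weak mark present in many cannot be told apart.

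The domains held 49.5 Mb, or 28.5% of the 173 Mb covered by all P17 H3K27ac peaks. Their median width was 30522 bp (quartiles 24219 and 43338 bp), against 3163 bp for the other peaks. There were 382 domains of 40 kb or more and 35 of 100 kb or more, and the widest ran over 287979 bp. The members nearest the limit lay at Rhobtb1 (20006 bp), Wdr17 (20012 bp) and Dync1i2 (20022 bp), and the peaks just short of it at Brca1 and Nbr1 (19978 bp), Tmpo (19957 bp) and Ppp6c (19955 bp). For 505 domains (39%) the next P17 H3K27ac peak began within 1000 bp, so where a domain ends depends on the calling. The X chromosome held 11 domains, or 0.849% of the members, against 563 (1.97%) of the other peaks, and the Y chromosome held 0.

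**Figure D1:**
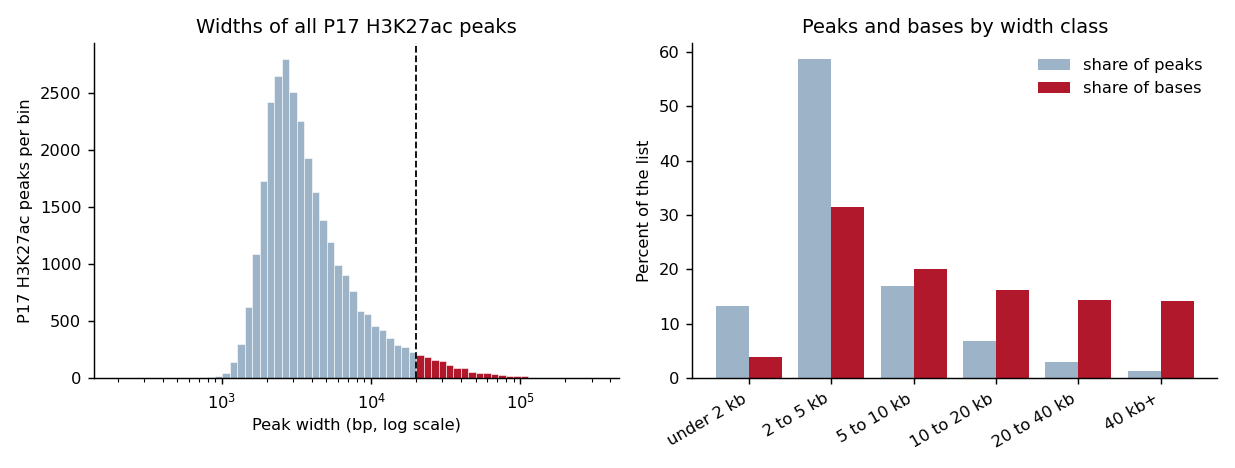
Left, the number of P17 H3K27ac peaks by width in bp on a log axis, with the 1296 wide domains in red to the right of the dashed line at 20000 bp. Right, the percent of peaks (grey) and of bases (red) in each width class; the classes from 20 kb upward hold 4.33% of the peaks and 28.5% of the bases.

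The domains with the sequences that best show their content are given first. Of 1005 miRNA hairpins in the RefSeq table (GRCm38.p6), 46 (4.58%) lay under 40 of the domains and 197 (19.6%) under any P17 H3K27ac peak. Among the 46 was the whole miR-183/96/182 cluster, known for its high level in photoreceptors, in a domain of 108244 bp that it shares with Nrf1 (chromosome 6, 30090565 to 30198808). The pair miR-181a-1 and miR-181b-1 lay in the widest domain without a protein-coding gene (73879 bp, chromosome 1, 137895508 to 137969386), and miR-9-2, a locus of a brain-enriched miRNA, in another such domain (33236 bp, chromosome 13, 83714043 to 83747278). Their 5p mature strands are shown with the seed, bases 2 to 8, in capitals, since the seed sets which transcripts a miRNA pairs with.
miR-183-5p: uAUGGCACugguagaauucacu
miR-96-5p: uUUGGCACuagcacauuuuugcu
miR-182-5p: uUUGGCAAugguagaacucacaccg
miR-181a-5p: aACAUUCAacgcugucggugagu
miR-181b-5p: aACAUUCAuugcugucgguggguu
miR-9-5p: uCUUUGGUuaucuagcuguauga
Among these strands, miR-181a-5p and miR-181b-5p have the same seed, ACAUUCA. P2 H3K27ac covered 85.7% of the bases of the Nrf1 domain, 82.7% of the miR-181 domain and 92.6% of the miR-9-2 domain. In the Nrf1 domain all 3 hairpins lay in P2 H3K27ac and in P17 H3K4me3. The miR-96 and miR-183 hairpins also lay in P2 H3K4me3 and in a P2 SOX9 peak, and the domain held 1 P2 SOX8 peak and 0 SOX peaks at P17. The miR-9-2 domain held 1 P17 SOX9 peak, 1 P17 SOX8 peak and 2 peaks of each factor at P2, with the hairpin itself inside a P2 SOX9 peak. The miR-181 domain held 1 P2 SOX9 peak and no other SOX peak.

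Promoters of 4 photoreceptor genes in the domains are shown next, because they differ in what lies over them. Each is the 250 bases before a RefSeq start, read 5′ to 3′ on the gene's strand. Capitals mark TAATCC or its reverse complement GGATTA, the core letters that CRX and OTX2, the homeodomain factors of photoreceptors, are known to recognise.
Crx, chr7:15879956-15880205, minus strand: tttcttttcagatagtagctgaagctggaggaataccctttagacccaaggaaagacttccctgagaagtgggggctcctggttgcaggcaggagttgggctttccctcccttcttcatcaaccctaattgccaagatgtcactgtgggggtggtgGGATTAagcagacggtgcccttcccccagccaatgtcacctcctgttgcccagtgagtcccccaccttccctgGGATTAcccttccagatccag
Cngb1, chr8:95306586-95306835, minus strand: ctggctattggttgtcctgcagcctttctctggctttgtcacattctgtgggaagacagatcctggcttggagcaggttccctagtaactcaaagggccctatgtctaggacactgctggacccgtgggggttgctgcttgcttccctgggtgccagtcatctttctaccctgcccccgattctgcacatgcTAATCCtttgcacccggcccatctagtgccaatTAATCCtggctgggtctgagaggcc
Cnga1, chr5:72642753-72643002, minus strand: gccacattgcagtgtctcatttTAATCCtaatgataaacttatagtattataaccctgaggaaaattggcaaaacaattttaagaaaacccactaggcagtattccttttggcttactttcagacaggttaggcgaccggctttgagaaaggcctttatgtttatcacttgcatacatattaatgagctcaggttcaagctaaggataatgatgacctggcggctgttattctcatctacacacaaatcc
Prph2, chr17:46910228-46910477, plus strand: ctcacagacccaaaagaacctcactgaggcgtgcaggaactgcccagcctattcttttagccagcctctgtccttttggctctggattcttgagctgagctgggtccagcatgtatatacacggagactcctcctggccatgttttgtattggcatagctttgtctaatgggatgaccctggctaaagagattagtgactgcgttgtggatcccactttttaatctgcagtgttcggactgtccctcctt
The window of Crx, the factor gene itself, held 2 matches and was covered from end to end by peaks of all 8 lists. The windows of Cngb1 (2 matches) and Cnga1 (1 match), subunits of the rod channel, were covered by P17 H3K27ac and P17 H3K4me3 and met no SOX peak at either age; P2 H3K27ac covered that of Cngb1 and missed that of Cnga1. Prph2, an outer segment disc protein, had 0 matches, with P17 SOX9, both marks at P17 and both marks at P2 over the window. Searched on both strands over all windows, TAATCC was present in 84 of 1083 starts in a wide domain (7.76%, interval 6.31 to 9.5%), in 5.17% (4.73 to 5.65%) of the 8892 starts under shorter P17 H3K27ac peaks and in 5.82% of all 21263 protein-coding starts. For starts of photoreceptor genes, taken from lists described below, the shares were 10 of 36 (27.8%) in a domain and 9 of 27 (33.3%) elsewhere, with intervals of 15.8 to 44% and 18.6 to 52.2% that overlap widely. The 1083 starts belong to 801 genes, and these 36 and 27 to 28 and 24 genes. The intervals treat starts of 1 gene as independent, which they are not. ACAAT, the core letters of SOX binding, was present in 17% of starts in a domain and 16.8% of those under shorter peaks, against 25.1% of all starts. Among photoreceptor starts it was present in 30.6% in a domain and 33.3% elsewhere. A match is a match of letters only.

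Genes under the domains were then counted. A gene was taken to lie under a domain when its body overlapped it by 1 bp or more, which held for 1427 of 21887 protein-coding genes (6.52%). An end of the body lay inside a domain for 1167 of them, and the whole body for 368. At least 50% of the body was in domains for 771 genes. These genes were long, with a median of 43186 bp against 17169 bp for all protein-coding genes, and a long gene meets more domains by its length. Most domains were tied to 1 gene (921), 291 held 2 to 4, 12 held 5 or more, and 72 (5.56%) held none. The largest number was 9 genes, in the domain at Cabp4. Protein-coding genes took up 83.3% of the bases of the domains and 73.9% of those of the other peaks.

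Several genes were filled by successive domains. Gse1 carried 5 domains with 279977 bp of its body, and Msi2, which encodes an RNA-binding protein, carried 6 with 263709 bp. In all, 172 genes lay under 2 or more domains and 45 under 3 or more. Dscaml1, a neuronal adhesion molecule, had the most bases in domains, 294203 bp or 90.2% of its body. Jarid2, which encodes a cofactor of the Polycomb complex, was 98.5% covered by 3 domains, and Pcbp3 97.1% by 4. Ntm, another adhesion molecule, lay under 6 domains that covered 19.9% of its body.

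The 10 widest domains differed in P2 cover and in SOX peaks. The widest (chromosome 9, 45411549 to 45699527) lay at Dscaml1, where P2 H3K27ac was broken into 54 peaks covering 68.6% of it. The domain of 163227 bp at Tax1bp1 and Jazf1 was 41.6% covered and held 1 SOX peak, of SOX9 at P17. That of 161444 bp at Ppp2r5c was 68.4% covered, with 1 peak in each of the 4 SOX lists. Casz1, a zinc finger gene known for a role in rod chromatin, lay under 159075 bp (chromosome 4, 148794476 to 148953550), 96% covered at P2 by 3 peaks. It held 7 P17 SOX9 peaks over 43.5% of its bases and 9 P2 SOX9 peaks, but 1 P17 SOX8 peak. Mrps27 and Map1b (151058 bp), Plxna2 (131631 bp), Dpf3 (130268 bp) and Rps6ka2 (129235 bp) followed with 75.2%, 61.7%, 52.1% and 96.8% P2 cover. The domain of 133608 bp at Aipl1, a chaperone gene of photoreceptors, also holds Pimreg, Pitpnm3 and 4933427D14Rik; it was 58.1% covered at P2 and held 3 P17 SOX9 peaks, 1 P17 SOX8 peak and 0 at P2. The tenth, 127502 bp at Jarid2 and Dtnbp1, was 36.8% covered and met neither H3K4me3 nor a SOX peak at either age.

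Photoreceptor genes were common under the domains. Of 64 genes on 4 lists (rod phototransduction, cone phototransduction, photoreceptor transcription factors, and outer segment and photoreceptor structure), 36 lay under a domain (56.2%, interval 44.1 to 67.7%), against 6.52% of all protein-coding genes. Among genes with a P17 H3K4me3 peak the share was 12.6% of 10417, among genes of 20000 bp or more 9.91% of 10039, and with both conditions 15.7% of 6012. The lists are small, their genes were chosen as known photoreceptor genes, and neighbours under 1 domain are not independent. With a width limit of 30000 bp 23 of the 64 (35.9%) remained under a domain, against 3.78% of all protein-coding genes. At the limit of 20000 bp 19 of the 64 had their whole body inside a domain, against 368 of all 21887 genes.

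Of the rod phototransduction genes, 14 of 22 lay under 15 domains, and the other 8 lay under shorter P17 H3K27ac peaks. The transducin subunits Gnat1 and Gnb1 had domains of 102021 bp and 67328 bp. That at Gnat1 (chromosome 9, 107643427 to 107745447), which also holds Slc38a3, Sema3f and part of Rbm5, was 92% covered by P2 H3K27ac and held 20 SOX peaks. That at Gnb1 was 17.1% covered and held 3 P17 SOX9 peaks. The phosphodiesterase subunit genes Pde6a (30091 bp) and Pde6b (23471 bp) were 11.9% and 16.9% covered at P2, each with 1 P17 SOX9 peak and no other SOX peak. The channel genes Cnga1, with 2 domains of which the wider ran over 25631 bp, and Cngb1 (28512 bp) were 5.86% and 35.4% covered. Slc24a1, the cation exchanger, had 44128 bp at 38.6%, and Sag, the rod arrestin, had 2 domains, the wider of 63463 bp at 62.6%. Rcvrn, the calcium sensor of rods, had 36824 bp at 45.4%. Guca1a and Guca1b, activators of guanylate cyclase, shared a domain of 35339 bp with Mrps10 (chromosome 17, 47367744 to 47403082) that was 1.95% covered at P2 and 71.3% covered by P17 H3K4me3, with no SOX peak at either age. Gnb5 (33823 bp), a partner of the deactivating RGS protein, was 63.8% covered, and Unc119 (35868 bp), a carrier of transducin, 51.5%. Over the 15 domains the median P2 cover was 38.6%, against 62.2% over all wide domains. P17 SOX9 met 11 of the 15 (73.3%) and P2 SOX9 met 2 (13.3%). The same shares were 39.7% and 41% of all wide domains, and 7.71% and 15.2% of P17 H3K27ac peaks of any width. P17 H3K4me3 met 14 of the 15. In the 782 wide domains with an end of a protein-coding gene inside, the P17 and P2 SOX9 shares were 53.8% and 56.1%.

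Over 7 of the 8 rod genes without a domain lay a P17 H3K27ac peak of 10 kb or more. The widest P17 H3K27ac peak over each was 18762 bp at Pdc, 17403 bp at Grk1, 17000 bp at Pde6g, 15567 bp at Rgs9, 15086 bp at Rgs9bp, 13383 bp at Gucy2f, 13271 bp at Gngt1 and 8459 bp at Gucy2e. Of the cone list, 1 of 12 genes (8.33%), the channel modifier Kcnv2, which rods also use, lay under a domain (24100 bp, 59.1% covered at P2). Of the other 11, 5 met a P17 H3K27ac peak of any width, and 6, among them both opsins Opn1sw and Opn1mw, met none. With Kcnv2 this makes 6 of 12, near the 52.9% of all protein-coding genes under a P17 H3K27ac peak of any width. The transducin gene Gnb3, with 14898 bp, had the widest of these.

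Of the photoreceptor transcription factors, 11 of 15 lay under a domain. The homeodomain factor genes Crx (62314 bp) and Otx2 (29244 bp) were 66.7% and 54.3% covered at P2. Nr2e3 (25880 bp), a nuclear receptor of rods, was 70.4% covered, and Neurod1 (21888 bp), a basic helix-loop-helix factor, 52.4%. Each of these 4 domains held SOX9 peaks at both ages. Esrrb, a nuclear receptor of rods, had 108147 bp at 27.1%, with 3 P17 SOX9 peaks and no P2 SOX peak. Mef2d had 51638 bp at 68.1%, Prdm1 60572 bp at 72.8% and Rora 87002 bp at 62%. Rorb (25389 bp, 82.5%) and Thrb (28403 bp, 90.4%) held no SOX peak. Nrl, the factor that sets rod fate, was left out by the width rule with a peak of 19399 bp, and Rxrg met no P17 H3K27ac peak. P2 SOX9 met 8 of the 11 domains in this group and 2 of the 15 in the phototransduction group, a difference that was not tested.

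Of the outer segment and structure genes, 10 of 15 lay under a domain, and all 10 domains met P17 H3K4me3. Prph2 (40978 bp) and Rom1 (32481 bp), the paired disc rim proteins, were 76.5% and 34.6% covered at P2. In the Prph2 domain a single P17 SOX9 peak covered 58.1% of the bases, and in that of Fscn2 (29948 bp), an actin bundler, 2 peaks covered 65.9%. Prom1 (67259 bp, 81%), Tulp1 (42046 bp, 56.4%), Fam161a (25386 bp, 45.7%), Rp1l1 (52092 bp, 21.2%) and Impg2 (21059 bp, 24.7%) span the range of P2 cover. Cdhr1, a protocadherin of discs, shared 67469 bp at 35.6% with Rgr, Lrit1, Lrit2 and 2610528A11Rik. Of the 5 genes without a domain, Abca4, Rp1, Impg1 and Pcare had P17 H3K27ac peaks of 16056 to 18712 bp. In all 4 photoreceptor lists together, 29 of 37 domains (78.4%) held a P17 SOX9 peak, 15 (40.5%) a P17 SOX8 peak, 15 (40.5%) a P2 SOX9 peak and 35 (94.6%) P17 H3K4me3. Over all wide domains these shares were 39.7%, 27.9%, 41% and 65.6%, and over the 782 domains with an end of a protein-coding gene inside 53.8%, 38.9%, 56.1% and 90.5%.

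Genes of the ribbon synapse, the release site of photoreceptors and bipolar cells, were long, with a median of 67135 bp, and all 17 met P17 H3K4me3. Among all genes of 20000 bp or more with such a peak 15.7% lay under a domain, and among all protein-coding genes 6.52%. Of the 17 ribbon synapse genes 12 (70.6%) lay under a domain. They include Ctbp2, which encodes the ribbon protein RIBEYE (81423 bp, 95.8% covered at P2), the complexins Cplx3 (29821 bp, 92%) and Cplx4 (61951 bp, 64.8%), the calcium sensor Cabp4 (64020 bp, 70.3%), the vesicle protein Sv2b (112919 bp, 56.7%), the adhesion protein Elfn1 (74974 bp, 32.3%) and the syntaxin Stx3 (21342 bp, 47.2%). Domains at the active zone genes Pclo (23979 bp), Unc13b (22102 bp) and Rims2 (21624 bp) were 24%, 16.3% and 18.6% covered and held no SOX peak. Of 20 glycolysis genes 9 lay under a domain (45%, against 12.6% of protein-coding genes with P17 H3K4me3), with P2 cover from 51.5 to 96.8%. Among them were Hk1 (71977 bp, 4 P17 SOX9 peaks), Gapdh (27236 bp), Aldoa (25337 bp), Aldoc, Eno1 (29802 bp), Ldha (49593 bp) and Gpi1. The transporters Slc2a1 (30969 bp, 96.8%) and Slc16a1 (30691 bp) were also among them. The domain at Gpi1 (91574 bp) also meets Garre1 and covered 19.2% of the body of Gpi1, and that at Slc16a1 covered 23% of its gene. Aldoc lies in the domain of 35868 bp given above for Unc119, so that domain counts for both lists.

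Lists of other cell types held from 0 to 4 genes under the domains, and with lists this small most intervals span the 6.52% of all protein-coding genes. Bipolar cell genes counted 1 of 15 (6.67%; Prkca, 73475 bp), and 2 more, Trpm1 and Grm6, had peaks of 17888 bp and 17021 bp. Amacrine and horizontal cell genes counted 2 of 15 (13.3%), Slc6a9 (66496 bp) and Pax6. Retinal ganglion cell genes counted 0 of 12 (interval 0 to 24.2%), and P17 H3K27ac peaks of any width met 2 of them. Müller glia genes counted 2 of 23 (8.7%), Clu and Car2 (20493 bp), and neither domain held a P17 SOX peak. The domain at Clu (32192 bp) also meets Gulo and covered 21.1% of the body of Clu. P17 H3K27ac of any width met 12 of the 23, near the 52.9% of all protein-coding genes. The SOX genes of this list, Sox2, Sox8 and Sox9, met none. Each met P2 H3K27ac, as did all 23 genes of the list and 16801 of 21887 protein-coding genes. Of 20 progenitor genes 4 lay under a domain (20%, interval 8.07 to 41.6%): Hes5 (71505 bp, 74.4% covered at P2), Rax (61951 bp, 64.8%), Six3 (27463 bp, 100%) and Pax6 (36586 bp, 100%). All 4 of those domains held peaks of SOX9 at P17 and of SOX9 and SOX8 at P2. The Rax domain is the one given above for Cplx4 and also holds Lman1, and the Hes5 domain also holds Pank4 and Plch2. Microglia (0 of 10), endothelial (0 of 8) and lens genes (0 of 6) had none. The pigment epithelium list had 1 of 9 (11.1%), Rgr, with 15.4% of its body in the domain it shares with Cdhr1. The immediate early list had 1 of 13 (Btg2, 49384 bp). Peaks of 10 kb or more lay over 6 of the 12 immediate early genes without a domain. They included Junb (19544 bp), Nr4a1 (18096 bp), Fos (17940 bp) and Egr1 (17186 bp). In the Müller glia list such peaks lay over 2 of 21 genes, Nfix (18622 bp) and Dkk3 (17569 bp). In the amacrine and horizontal cell list they lay over 2 of 13, with 18036 bp at Prox1.

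**Figure D2:**
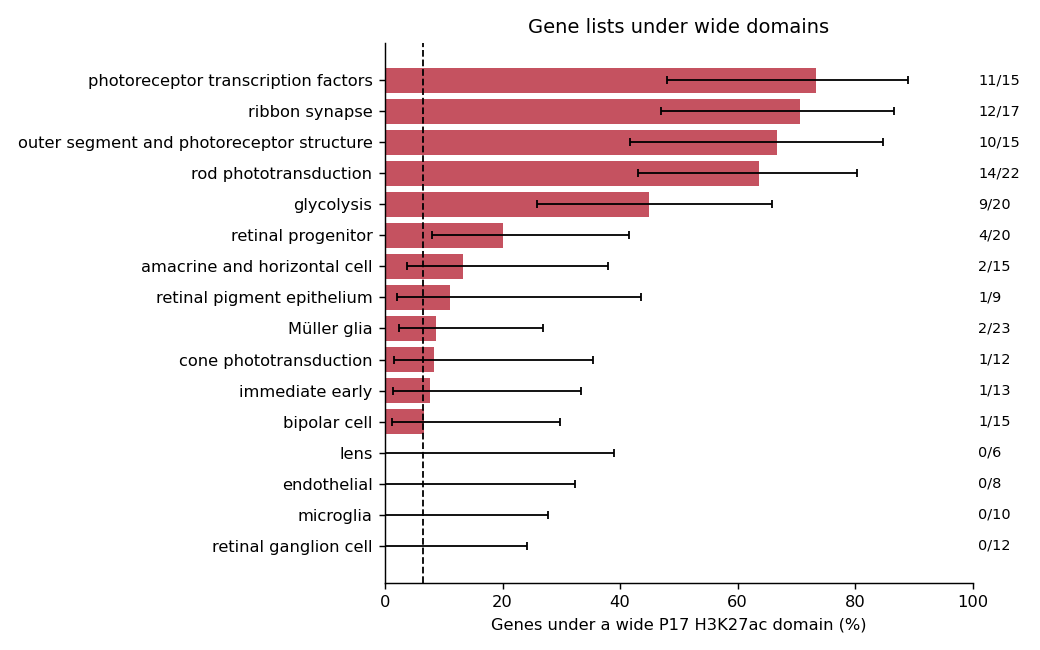
Percent of each gene list under a wide P17 H3K27ac domain, with 95% Wilson intervals as error bars and the number of genes of the list at the right. The dashed line is the share of all protein-coding genes, 6.52%; the photoreceptor transcription factor, ribbon synapse, outer segment, rod, glycolysis and progenitor lists have intervals above it.

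The next question was how much of each domain already carried H3K27ac at P2. The P2 list covered 62.4% of the bases of the wide domains and 60.1% of those of the other P17 peaks. By width class the share ran from 63.6% (under 2 kb) over 56.2% (10 to 20 kb) to 65.7% (40 kb or more), so it did not follow width in 1 direction. Per domain the median was 62.2% (quartiles 41.6 and 83.7%). P2 H3K27ac covered 50% or more of 834 domains (64.4%), 90% or more of 215 (16.6%), and every base of 30. It covered under 25% of 131 (10.1%), under 10% of 20, and none of 1. The P2 list is far longer than the P17 list, 287845 peaks over 525 Mb, and the share depends on it: limited to its 29909 widest peaks (3265 bp or more), it covered 43.0% of wide domains and 32.5% of other peaks.

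The P2 signal in the domains was mostly in pieces, as is the P2 list as a whole, with 287845 peaks over 525 Mb. Overlaps with P2 peaks numbered 185 per Mb in the domains and 283 in the other P17 peaks, a count that favours short peaks. A domain held a median of 6 P2 peaks, and the longest piece had a median of 6558 bp, or 20.4% of its domain. Only 66 domains met a single P2 peak. Of the 831 P2 H3K27ac peaks that were themselves 20000 bp or more, 231 (27.8%) overlapped a P17 domain, and 208 P17 domains (16%) overlapped one of them. The same shares for the other peaks were not computed.

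The domains at the ends of the range were named. Tmem108 (27810 bp, chromosome 9, 103735621 to 103763430) was the one with no P2 H3K27ac; it held P17 H3K4me3 and 1 P17 SOX9 peak, with neither H3K4me3 nor a SOX peak at P2. The Guca1a and Guca1b domain followed with 1.95%, then Slc17a1 and Slc17a4, phosphate transporter genes (20595 bp, 2.72%), Kcnma1, a potassium channel gene (28204 bp, 3.08%), and Mbnl1, a splicing factor gene (22052 bp, 3.33%). These last 4 held no SOX peak at either age. At the other end, a single P2 peak covered the whole of the domains at Msi2 (87813 bp), Akna and Whrn (72504 bp), Zmiz1 (65595 bp), Mark3, Ckb and Trmt61a (43781 bp) and Ift122 (43719 bp). The Msi2 domain, 1 of its 6, held no SOX peak and no H3K4me3 at either age, whereas that at Mark3 and Ckb held 11 SOX peaks.

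**Figure D3:**
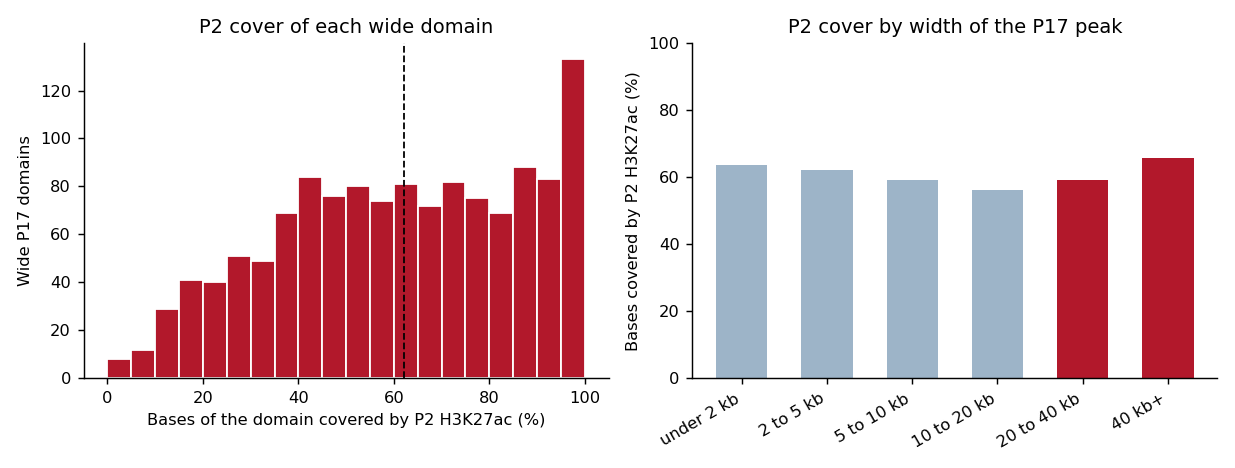
Left, the number of wide P17 domains by the percent of their bases covered by P2 H3K27ac, in steps of 5 points, with the median of 62.2% as a dashed line. Right, the percent of bases covered in each width class of P17 H3K27ac peaks (red, the wide domains); all 6 classes lie between 56.2 and 65.7%.

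H3K4me3 and SOX peaks inside the domains were counted in the same way. A domain meets more peaks because it is wide, so the share of domains with a peak is given beside the same share for all P17 H3K27ac peaks, and per base beside it. P17 H3K4me3 met 850 domains (65.6%, interval 63 to 68.1%), against 28.5% of all P17 H3K27ac peaks, and P2 H3K4me3 met 722 (55.7%) against 25.7%. Per base the order was the other way: P17 H3K4me3 covered 13.2% of the bases of the domains and 19.9% of those of the other peaks, and P2 H3K4me3 8.11% and 17.2%.

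P17 SOX9 met 515 domains (39.7%, interval 37.1 to 42.4%), against 7.71% of all P17 H3K27ac peaks. P17 SOX8 met 362 (27.9%, 25.6 to 30.4%) against 6.24%, P2 SOX9 met 531 (41%, 38.3 to 43.7%) against 15.2%, and P2 SOX8 met 312 (24.1%, 21.8 to 26.5%) against 7.99%. With only the wider 50% of each SOX list, these shares of domains were 21.8%, 16.7%, 27% and 16% in the same order. Per Mb the numbers of overlaps with SOX peaks were not higher in the domains. They were 14 against 14.8 in the other peaks for P17 SOX9, and 9.96 against 12.6 for P17 SOX8. For P2 SOX9 they were 14.3 against 33.1, and for P2 SOX8 7.52 against 17. Such a count favours short peaks, since a SOX peak that reaches into a short peak by any length counts in full. It therefore cannot decide whether SOX peaks were denser or sparser in the domains. In share of bases, P17 SOX9 stood apart from the other lists. It covered 8.46% of the bases of the domains and 5.45% of those of the other peaks, while P17 SOX8 covered 3.31% and 3.37%, P2 SOX9 5.01% and 8.39%, and P2 SOX8 1.99% and 3.75%. From the narrowest to the widest class the P17 SOX9 share rose at each step (1.69, 4.22, 6.57, 7.34, 8.28 and 8.63%), and that of P2 SOX9 went from 9.8% at 2 to 5 kb down to 4.42% at 40 kb or more. In all 4 SOX lists the peaks in the domains were wider than those in other P17 H3K27ac peaks, with medians of 5597 and 4706 bp for P17 SOX9, 3052 and 2818 bp for P17 SOX8, 2939 and 2580 bp for P2 SOX9, and 2452 and 2161 bp for P2 SOX8. P17 SOX9 peaks outside P17 H3K27ac had a median of 6492 bp.

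**Figure D4:**
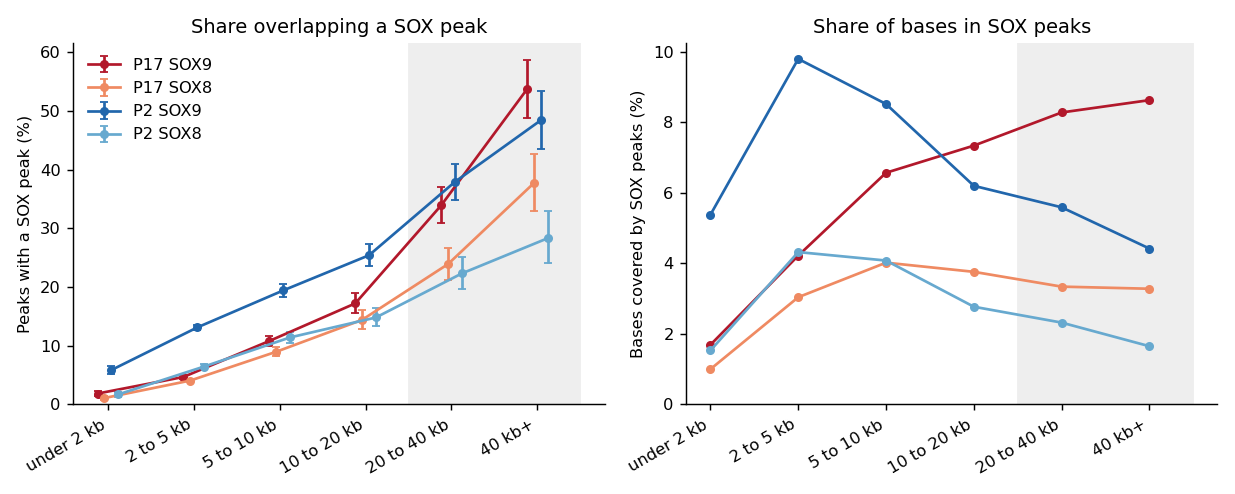
Left, the percent of P17 H3K27ac peaks of each width class that overlap a SOX peak, with 95% Wilson intervals as error bars; right, the percent of their bases covered by SOX peaks; the wide domains are on the grey ground. All 4 shares of peaks rise with width, whereas by bases P17 SOX9 alone is highest in the widest class, at 8.63%.

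Most domains with SOX9 at P17 held 1 peak of it (399), 73 held 2 and 43 held 3 or more. SOX9 peaks covered more than 50% of 32 domains at P17 and of 9 at P2, and SOX8 peaks of 4 and 0. Both factors were present at P17 in 302 domains (23.3%), SOX9 without SOX8 in 213 (16.4%), SOX8 without SOX9 in 60 (4.63%), and neither in 721 (55.6%). All 4 SOX lists met 194 domains (15%), and none of them 573 (44.2%). SOX9 was present at both ages in 349 domains (26.9%), at P17 without P2 in 166 (12.8%) and at P2 without P17 in 182 (14%). The domains with most SOX peaks were those at Casz1, at Gse1 and Gins2 (102365 bp) and at Gnat1, with 20 each, then Ccdc85c (72722 bp, 99.9% covered at P2) with 19 and Nfic with Dohh, Gm48552 and Smim24 (61184 bp) with 18. In the Nfic domain, at a gene of the nuclear factor I family, P17 SOX9 covered 75.9% of the bases, and in the Gse1 domain 53.7%.

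Of the 2855 P17 SOX9 peaks, 694 (24.3%) lay in a wide domain and 1714 (60%) in another P17 H3K27ac peak. Those in the domains met a P2 SOX9 peak in 56.2% of cases (52.5 to 59.8%), against 71.6% (69.5 to 73.7%) in other H3K27ac peaks. They met P17 H3K4me3 in 71.9% against 78.8%, and P17 SOX8 in 47.3% against 55.2%. Of the 2400 P17 SOX8 peaks 493 (20.5%) lay in a domain, and 44.8% of them met a P2 SOX8 peak, against 63.2% elsewhere in H3K27ac. Seen from P2 the order was the other way. Of 707 P2 SOX9 peaks in the domains (12.9% of 5476) 56.3% met a P17 SOX9 peak, against 30.6%. Of 372 P2 SOX8 peaks (14% of 2653) 59.1% met a P17 SOX8 peak, against 46.2%. For SOX9 both views count nearly the same shared peaks, 390 and 398 in the domains and 1228 and 1244 in other H3K27ac peaks. The 2 orders differ through the totals at P17 and P2, 694 and 707 in the domains but 1714 and 4067 in other peaks.

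Where a domain lay in relation to genes went with what it held. In the 782 domains (60.3%) with an end of a protein-coding gene inside, P17 H3K4me3 was present in 90.5% and P17 SOX9 in 53.8% (50.3 to 57.3%). In the 442 (34.1%) inside a gene with no end, the shares were 26.7% and 16.5% (13.3 to 20.3%), with median widths of 31428 and 28145 bp. In the 72 domains with no protein-coding gene they were 33.3% and 29.2% (19.9 to 40.5%). P2 SOX9 followed the same order, with 56.1%, 16.7% and 25%, while P2 H3K27ac covered 60.9%, 66% and 57.6% of the bases. After the miR-181 domain, the widest without a protein-coding gene lay 22980 bp from Skor1 (70310 bp), 10054 bp from Ppm1b (59003 bp), 87394 bp from Ncam1 (56043 bp) and 41034 bp from Otx2. This last one ran over 55373 bp (chromosome 14, 48708679 to 48764051), overlaps the non-coding genes Otx2os1 and Gm38660, was 11.4% covered at P2 against 54.3% for the domain on Otx2 itself, and held P17 H3K4me3 and 1 P17 SOX9 peak.

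The share of domains with a SOX9 peak was higher in classes with more P2 cover, although the intervals of neighbouring classes overlap. P17 SOX9 was present in 27.5% (20.6 to 35.7%) of domains under 25% P2 cover, in 36.9%, 39.5% and 43.1% of the classes between, and in 48.4% (41.8 to 55%) of those at 90% or more. P17 SOX8 ran from 15.3 to 35.3% over the same classes P2 SOX9 from 30.5 to 50.2%, and P2 SOX8, without a steady order, from 17.6 to 27%. Median widths of the classes ranged from 27522 to 31257 bp. P17 H3K4me3 did not follow this order, at 67.2%, 72.8%, 67.2%, 64.7% and 51.6%.

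**Figure D5:**
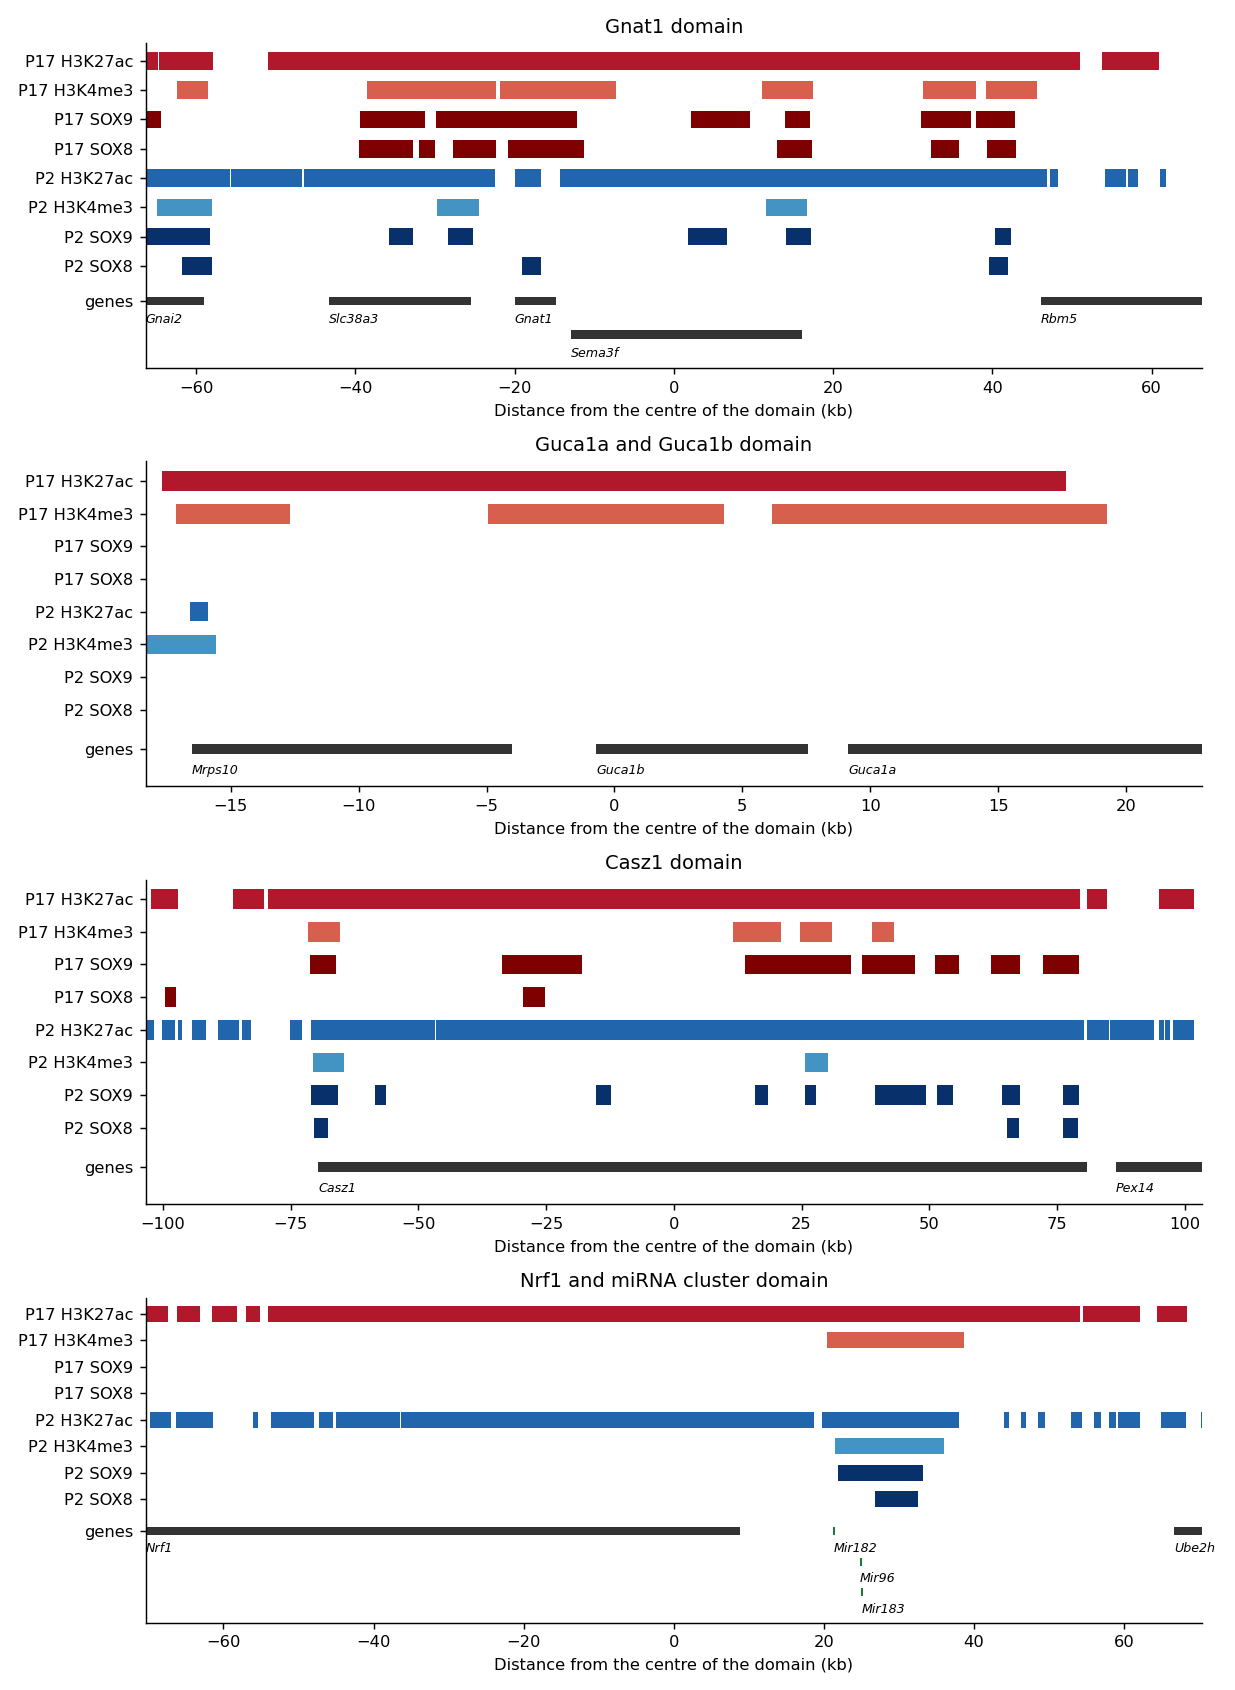
Peaks of all 8 lists (P17 in red, P2 in blue) and genes (black; miRNA hairpins in green) around 4 domains, by distance from the centre of the domain in kb. The Gnat1 domain holds 20 SOX peaks and is 92% covered by P2 H3K27ac, the Guca1a and Guca1b domain holds no SOX peak and is 1.95% covered, the Casz1 domain has SOX9 peaks along its length at both ages, and the miR-183/96/182 domain has SOX peaks at P2 but none at P17.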

How the data were processed

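CUT&RUN peak lists of wild-type mouse retina at P2 and P17 were used, 8 lists from 24 libraries with IgG not analysed here. The deposited lists give peak coordinates and a score, and per the file contents the deposited score is 0 for every peak, so no height could be used. Per the submitters' processing notes, Bowtie2, SEACR and the build GRCm38 were used; their settings, and how replicates and the SOX8 antibodies were combined, are not given in the sources used here. Read depth per library is unknown from these files. As a check of the build, 63.4% of P17 H3K4me3 peak centres lay within 1000 bp of a RefSeq start (GRCm38.p6), and 2.55% after a move of 10000 bp.

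With Python 3.11.15, numpy 2.4.6, pandas 2.3.3 and statsmodels 0.14.6, overlaps of 1 bp or more and bases covered by merged peaks were counted. Wilson intervals used a confidence level of 95%. Overlap counting was tested on simulated intervals. No test was run, since each group has 1 list. Genes, starts and sequences came from RefSeq tables; all genes of the 16 lists matched. The members and the gene lists were chosen with earlier results of these data known. Named genes are those of the lists, the 10 widest domains, the 5 with most SOX peaks, the 5 with least and with most P2 cover (ties by width), the 3 on each side of the width limit and the widest without a gene; the genes with most bases in domains, the miRNAs and the promoters were chosen after their values were seen. Some genes of the lists are counted but not reported here by name. Alternatives were other width limits, joined peaks, autosomes only, shorter P2 lists, a stricter overlap, the wider 50% of each list, and whole gene bodies.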

Additional observations from a re-analysis of the deposited data

How the results depend on the processing

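Of 48 alternatives for 8 results, 29 kept their value, by the rule that a share stays inside the interval of its main value and a count within 1.5 times, and 19 moved. P2 cover is a share of bases and has no such interval. For it the rule borrowed the interval of an equal share of 1296 domains, so its labels are a convention only. The width limit decides how many domains meet another peak. At 15000 bp (1946 domains) the shares were 33.8% for P17 SOX9, 24.6% for P17 SOX8, 37.3% for P2 SOX9 and 58.6% for P17 H3K4me3. At 30000 bp (669 domains) they were 48.6%, 32.3%, 45.4% and 74.0% in the same order, with 828 genes and 23 photoreceptor genes under a domain. Photoreceptor genes were then 35.9% of their lists and all genes 3.78%, against 73.4% and 9.08% at 15000 bp. P2 cover of the bases was 43.0% with the P2 list cut to the P17 number of peaks, and 59.1% with P2 peaks of at least 1000 bp. With the wider 50% of each list, shares were 21.8% for P17 SOX9, 16.7% for P17 SOX8, 27% for P2 SOX9, 16.0% for P2 SOX8 and 59.3% for P17 H3K4me3, where fewer peaks could be met. Requiring the whole gene body left 368 genes and 19 photoreceptor genes. Autosomes only, joined peaks and a stricter overlap moved none of the results they were applied to. Peak height and read depth are not in the lists, so the strength of the mark within a domain was not measured, and replicate spread is unknown. No paired analysis was possible because each list stands for a whole group and names no replicate.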

Other observations

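Among the other miRNA genes, 2 loci in domains with several protein-coding genes were chosen after their values were seen. The hairpins of miR-191 and miR-425 shared a domain of 40768 bp on chromosome 9 (108563526 to 108604293) with Impdh2, Ndufaf3, Dalrd3, Wdr6, P4htm and Arih2, and P2 H3K27ac covered 62.2% of its bases. The miR-191 hairpin lay in peaks of all 8 lists, and that of miR-425, a close neighbour, in P17 H3K27ac, in H3K4me3 at both ages and in both SOX lists at P17, with no P2 H3K27ac or P2 SOX peak over it. The domain of 47207 bp at Dlg4, which encodes the postsynaptic scaffold PSD-95, held miR-324 and SOX peaks of all 4 lists, 4 of SOX9 and 1 of SOX8 at P17 and 5 and 4 at P2. None of the lists other than P17 H3K27ac had a peak over that hairpin.

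By chromosome, wide domains made up 5.12% of the P17 H3K27ac peaks on chromosome 12 and 5.01% on chromosome 15, the highest shares. The lowest, apart from 0 of 3 on the Y chromosome, were 1.92% on the X chromosome and 2.82% on chromosome 16.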
